A study of Mus musculus with 4 samples.

Results

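Innate lymphoid and natural killer (NK) cells of the synovium, the membrane that lines the joint, were compared between TNF+ mice, which overexpress human TNF, and their TNF- littermates. The cells were selected on their own counts. A cell barcode was taken if it held at least 500 UMIs (unique molecular identifiers, 1 per captured transcript) of which at most 20% were mitochondrial, at least 1 UMI of Ptprc, the pan-leukocyte antigen CD45, and at least 3 UMIs summed over Il1rl1, Gata3, Ncr1 and Klrb1c. Barcodes with any UMI of the T cell genes Cd3d, Cd3g or Trac, of the B cell gene Cd79a, of the macrophage gene Csf1r or of the mast cell and basophil genes Cpa3, Mcpt4, Mcpt8 or Ms4a2 were left out, as were those with more than 5 UMIs of Col1a1 and Col1a2. This gate held 173 of 29563 barcodes within the UMI and mitochondrial limits in all 4 libraries, or of 10136 in the synovium: 149 in the TNF- and 24 in the TNF+ library. The genes of the gate were its rule, so their values are a description.

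Innate lymphoid cells arise from the lymphoid lineage but carry no rearranged antigen receptor. Group 2 cells (ILC2) depend on the transcription factors GATA3 and RORα, respond to the alarmin IL-33 through its receptor ST2, the product of Il1rl1, and secrete type 2 cytokines such as IL-5 and IL-13 and the epidermal growth factor receptor ligand amphiregulin (Areg). NK cells, which bear NKp46 (Ncr1) and NK1.1 (Klrb1c), kill target cells with perforin and granzymes and release interferon-γ and chemokines.

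Female C57BL/6 mice were used, and the labels give their age as 4 months. TNF+ mice overexpressed a single copy of the human TNF gene from the TNF-Tg line, a model of erosive arthritis with lung disease, and TNF- mice were their littermates without it. Tissue of 5 to 10 mice per genotype was pooled for synovium and of 3 to 5 for lung, which gave 1 library per genotype and tissue. With 1 library per group there is no replicate and no test: intervals in brackets are at 95% and cover counting error only, not the spread between mice or preparations, and transcripts of 1 cell are not independent of each other. The human transgene is not in the mouse reference, and its transcripts were not analysed here. Libraries held 48454234 to 155989523 UMIs. The 2 synovium libraries shared 5 barcode sequences, none of them in the gate, and other pairs of libraries shared 7 to 21, with 0 to 2 of them gated in either library of a pair.

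Most of the gated cells lay in the TNF- library. They made up 2.24% (1.90 to 2.63) of 6638 TNF- barcodes and 0.686% (0.440 to 1.02) of 3498 TNF+ barcodes, a difference of -1.56 percentage points (-2.00 to -1.09). Of barcodes with Ptprc, they made up 12.9% (11.03 to 15.0) of 1154 in the TNF- and 1.72% (1.10 to 2.55) of 1396 in the TNF+ library, a difference of -11.2 points (-13.3 to -9.20). A share of captured barcodes cannot separate fewer of these cells from more of all others, and less RNA per cell would also lower it. When Cd3e, Trbc1, Trbc2 and Trdc had to be at 0 as well, 0.678% of TNF- and 0.114% of TNF+ barcodes remained in the gate. The same gate held 193 barcodes, or 2.31%, in the TNF- lung and 136, or 1.23%, in the TNF+ lung.

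The step that removed most Ptprc-positive barcodes was the sum of the 4 genes, which left 260 of 1154 in the TNF- and 52 of 1396 in the TNF+ synovium. The T cell genes brought these to 203 and 32, and Csf1r brought the 202 and 32 left after Cd79a to 159 and 25. At the edge of the rule in the TNF- library, 21 barcodes had a sum of 2 and stayed out, of which 5 had a Rora UMI and 15 held at least 40 UMIs of major histocompatibility complex (MHC) class II genes. Just inside it, 12 barcodes had a sum of 3, of which 2 had Rora and 8 held as many class II UMIs, and 5 had a sum of 4, of which 1 had Rora. In the TNF+ library, 9 barcodes had a sum of 2, of which 5 had Rora. Another 2 had a sum of 3 and 4 had a sum of 4, and 1 and 4 of these had Rora.

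Each gated cell was placed on the ILC2 side if its UMIs of Il1rl1 and Gata3 exceeded those of Ncr1 and Klrb1c, and on the NK side if they were fewer. In the TNF- synovium 128 cells were on the ILC2 side and 21 on the NK side. The ILC2 side thus held 85.9% (79.3 to 91.1) of the gate there. In the TNF+ synovium it held 18 of 24 cells, or 75.0% (53.3 to 90.2), with 4 cells on the NK side and 2 tied. The balance was the other way round in the lung, where the ILC2 side held 20.2% (14.8 to 26.6) of the TNF- and 37.5% (29.4 to 46.2) of the TNF+ gate. Without the barcodes of a second lineage described below, the lung shares were 11.2% (6.91 to 17.0) and 37.8% (29.6 to 46.5).

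The label was checked against genes that the rule did not use, and 15 TNF- barcodes and 1 TNF+ barcode of the ILC2 side went against it. The 15 held 11 to 1877 UMIs of 7 MHC class II genes, with a median of 1086, and 14 of them had Cd209a, a dendritic cell lectin. The lowest of the 15 was set apart by its 292 UMIs of fibroblast genes. All 15 had Il1rl1, but 13 lacked Gata3 and only 4 had Rora. Their median was 21378 UMIs, against 11669 in the other 113 TNF- cells of that side, which had 0 to 7 class II UMIs each. The TNF+ barcode had 101 UMIs of 5 endothelial genes and 28468 UMIs in all. These 16 barcodes were set apart and are called barcodes of a second lineage. The limit was 40 UMIs over the MHC class II, endothelium or fibroblast list and was chosen after the data were seen. The name marks genes of another lineage and does not mean that ILC2 genes were also present. Of the 15, 3 had Areg and 3 had Il2ra. Results of the ILC2 side are given without the 16 unless stated. The highest Scrublet doublet scores covered 3 of the 15.

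**Figure D1:**
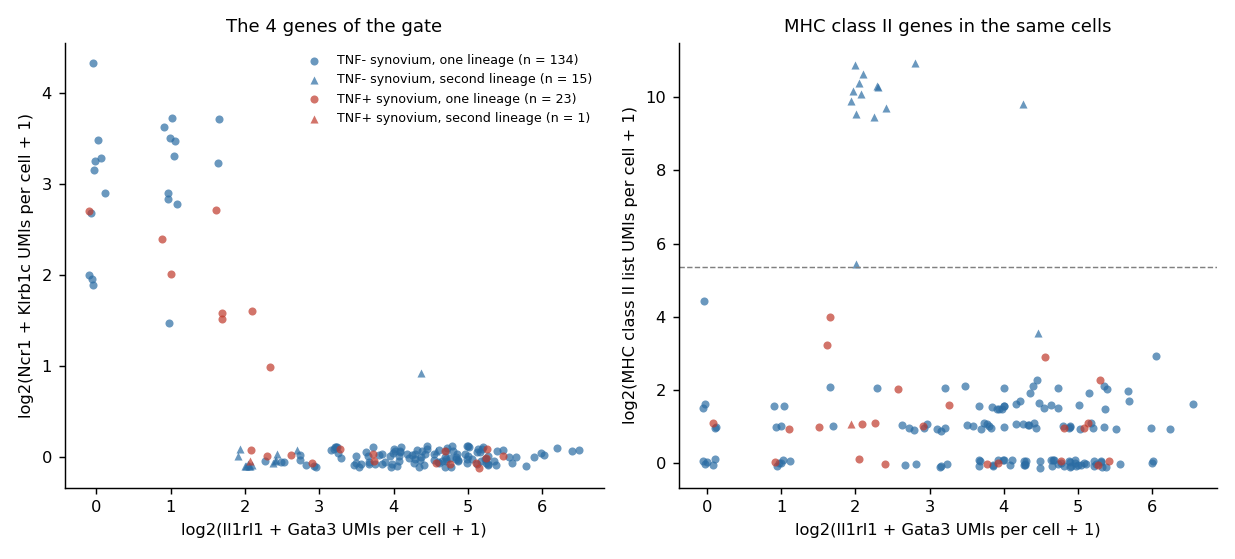
Gated synovial cells by the genes of the gate. Each point is 1 cell, blue for TNF- and red for TNF+, with triangles for the 16 barcodes of a second lineage. The left panel plots Ncr1 plus Klrb1c UMIs against Il1rl1 plus Gata3 UMIs per cell, both on a log2(UMIs + 1) scale with a small random offset, and shows 2 arms with few cells between them. The right panel plots MHC class II UMIs against the same x axis, with the limit of 40 UMIs dashed, and shows 14 of the triangles above it.

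The 113 remaining TNF- cells of the ILC2 side were alike in their core genes. Gata3 and Rora had UMIs in 113 of 113 cells, with Rora at 3 to 137 UMIs per cell and a median of 22. Il1rl1, Il7r, which encodes the IL-7 receptor, and Il2ra, the high-affinity IL-2 receptor subunit CD25, each had UMIs in 109. Neither Ncr1 nor Klrb1c had a UMI in any of them. Levels are given as CPM, the counts of a gene per 1000000 UMIs summed over the cells of a group. Rora was at 2098 CPM (2024 to 2175) on the ILC2 side and at 85.7 CPM (50.8 to 135) on the NK side.

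All 21 TNF- cells of the NK side had UMIs of Ccl5, a chemokine of cytotoxic lymphocytes, with 4 to 344 UMIs per cell and a median of 127. Gzma, encoding granzyme A, and Prf1, encoding perforin, each had UMIs in 20 of the 21. Eomes, a transcription factor of mature NK cells, had UMIs in 12. None of the 21 had a UMI of Il1rl1, Areg, Il2ra, Il5 or Il13, and Gata3 was at 61.9 CPM (33.0 to 106), against 1298 (1239 to 1358) on the ILC2 side.

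Of the T cell receptor complex, Cd3e had no UMI in any of the 173 gated cells, where a floor of 3 cells would be 1.73%. It was not part of the rule and had UMIs in 82.5% of 160 synovial T cells. The receptor constant genes Trbc1 or Trbc2, whose reads cannot always be told apart, had UMIs in 85 of 113 TNF- and 14 of 17 TNF+ cells of the ILC2 side and in 15 of 21 TNF- cells of the NK side. Trbc2 was at 163 CPM (143 to 185) on the TNF- ILC2 side, against 581 in TNF- T cells. Il23r, Il22, Il17a and Il17f, a receptor and cytokines of type 3 immunity, were at 0 in all 173 cells, as was Ccr6. Also at 0 were Il9, Ptgdr2, which encodes the prostaglandin D2 receptor CRTH2 of ILC2, Penk and Tph1. Other genes of a list of 15 for group 3 innate lymphoid cells did have UMIs. In the 109 TNF- cells of the ILC2 side with Il1rl1, Tmem176b had 627 UMIs, Ltb 465, Kit 336, Nrp1 41 and Ahr 27.

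The promoters of Areg, Il13, Il5 and Gzma are shown as examples of genes that differed between the sides. Il13 (ENSMUSG00000020383, chromosome 11, 53631324 to 53634702) and Il5 (ENSMUSG00000036117, chromosome 11, 53720794 to 53725106) lie in the same cytokine locus. Areg (ENSMUSG00000029378) lies on chromosome 5 at 91139599 to 91148432 and Gzma (ENSMUSG00000023132) on chromosome 13 at 113093825 to 113100981, all on GRCm38. Each sequence is the 250 bases before the annotated start, in the direction of the gene, from RefSeq on GRCm38.p6. They span 5:91139349-91139598 on the plus strand for Areg, 11:53634703-53634952 on the minus strand for Il13, 11:53720544-53720793 on the plus strand for Il5 and 13:113100982-113101231 on the minus strand for Gzma. Capitals mark the letters AGATAA or TGATAA on either strand, which the GATA factors are known to bind.
Areg: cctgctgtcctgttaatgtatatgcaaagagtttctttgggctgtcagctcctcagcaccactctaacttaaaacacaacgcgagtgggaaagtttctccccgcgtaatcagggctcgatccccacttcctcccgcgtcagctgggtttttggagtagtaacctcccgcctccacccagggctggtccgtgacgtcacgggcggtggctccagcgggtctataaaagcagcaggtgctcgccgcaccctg
Il13: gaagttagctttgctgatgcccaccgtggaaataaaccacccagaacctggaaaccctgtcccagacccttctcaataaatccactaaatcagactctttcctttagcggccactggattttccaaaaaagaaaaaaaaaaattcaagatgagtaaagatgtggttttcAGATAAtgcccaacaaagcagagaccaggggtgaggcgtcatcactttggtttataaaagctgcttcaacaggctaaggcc
Il5: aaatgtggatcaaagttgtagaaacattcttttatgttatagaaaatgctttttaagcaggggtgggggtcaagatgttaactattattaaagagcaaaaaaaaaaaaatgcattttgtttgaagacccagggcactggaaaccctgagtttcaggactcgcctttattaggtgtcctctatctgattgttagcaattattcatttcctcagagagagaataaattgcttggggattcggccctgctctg
Gzma: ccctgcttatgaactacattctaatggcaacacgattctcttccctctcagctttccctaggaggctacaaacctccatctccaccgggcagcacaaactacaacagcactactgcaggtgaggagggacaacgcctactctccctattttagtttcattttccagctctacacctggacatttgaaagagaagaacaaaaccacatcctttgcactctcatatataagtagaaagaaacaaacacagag
The letters occurred once, in the Il13 promoter at position -81 from the start. Of 32851 promoters of this length, 16.6% hold them. Only these letters were searched, so a promoter without capitals may still hold another GATA site. The Il5 sequence holds ctatct, which reads AGATAG on the other strand, a variant that was not searched.

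Areg, Il5, Il13, Csf2 and Calca were detected on the ILC2 side of the TNF- synovium and not on its NK side. Areg had UMIs in 95 of 113 cells, with 0 to 172 UMIs per cell and a median of 7. Il5, which drives eosinophil survival, had UMIs in 60 cells, with 0 to 139 per cell and a median of 1. Il13 had UMIs in 30 cells and up to 49 per cell. Csf2, encoding GM-CSF, had UMIs in 46 cells and up to 88 per cell. Calca, which encodes the neuropeptide CGRP, had UMIs in 34 cells and up to 16 per cell. None of these 5 genes had a UMI in the 21 cells of the NK side. Vegfa, an angiogenic growth factor, was lower on the ILC2 side, at 24.0 against 81.0 CPM, a log2 ratio of -1.75 (-2.63 to -0.82).

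Summed over cells, Areg was at 1392 CPM (1331 to 1455) on the TNF- ILC2 side and Il5 at 854 (806 to 903). Csf2 was at 467 (432 to 504), Il13 at 202 (179 to 227) and Calca at 115 (98.0 to 134). No single cell held more than 17.1% of the UMIs of any of them. In all other barcodes of that library, T cells included, Il5 was at 3.46 CPM and Areg at 14.1.

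The cytokines were not spread over the same cells alike. Il5 had UMIs in 24 of the 30 TNF- cells with Il13, or 80.0%, and in 36 of the 83 without it, or 43.4%. The median depth of these cells was 12107 and 11572 UMIs. Il5 had UMIs in 26 of the 46 cells with Csf2, or 56.5%, and in 34 of the 67 without, or 50.7%. All 34 cells with Calca had Areg, against 61 of the 79 without Calca.

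**Figure D2:**
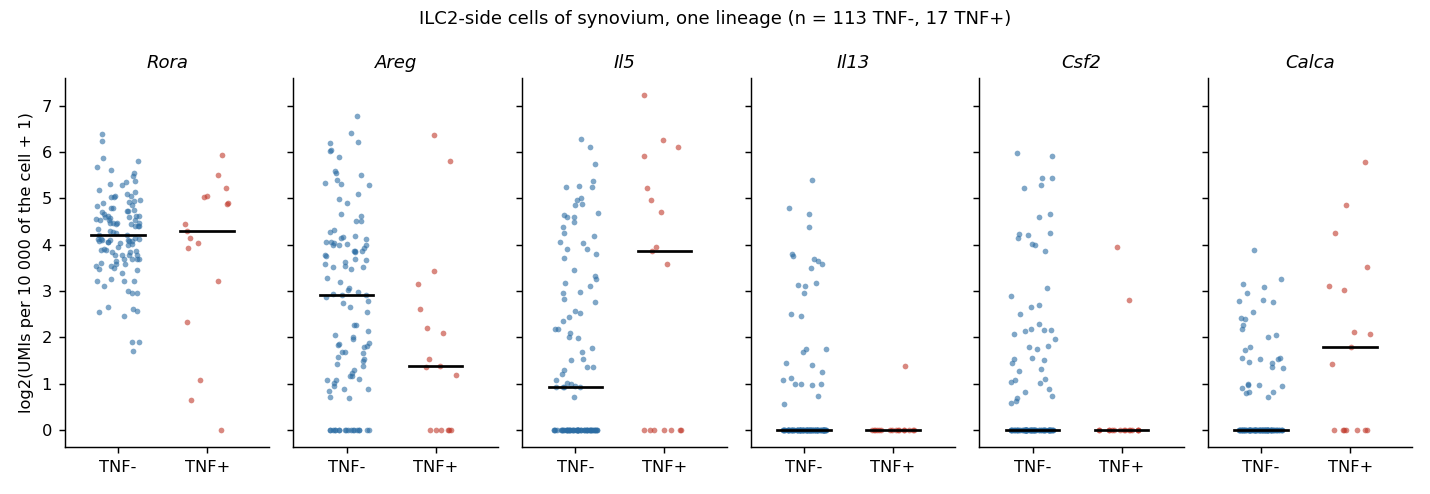
Effector genes in single cells of the ILC2 side, without barcodes of a second lineage. Each point is 1 cell (113 TNF-, 17 TNF+), the y axis is log2 of the UMIs per 10 000 of the cell plus 1, and black lines are medians. Rora is above 0 in all 113 TNF- and 16 of 17 TNF+ cells, Il13 and Csf2 are at 0 in most cells of both genotypes, and the 10 TNF+ cells with Il5 lie in the upper part of the TNF- range or above it.

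Over all genes, 16.5% of 7272 with at least 20 UMIs were at least 2-fold higher on the ILC2 side than on the NK side of the TNF- synovium, and 16.7% at least 2-fold lower, with the 15 barcodes of a second lineage included. With median-of-ratios scaling these shares were 18.6% and 12.8%, and without the second lineage they were 14.9% and 19% of 6280 genes. Of the ILC2 marker list, 24 of 28 measured genes were at least 2-fold higher and 1 lower, and the median log2 ratio was 3.46, against -0.13 over all genes. Of the NK list, 32 of 34 were at least 2-fold lower, with a median of -6.43. The lists hold the genes of the gate, and both sides were defined by those genes.

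The genes that led the ILC2 side by the bound of their interval were Areg, Dach2, Cd74, Il5, Inpp4b, H2-Ab1, Il1rl1, Il2ra, Tmem176a and Cxcl2. Cd74 and H2-Ab1, of MHC class II antigen presentation, came from the 15 barcodes of a second lineage. Without them Cd74 was at 33.2 CPM on the ILC2 side and 57.1 on the NK side, a log2 ratio of -0.79, where with them it was 6.11. That reversal follows from the limit itself, which used Cd74. Dach2, a transcriptional regulator, was at 898 CPM (850 to 949) and in 105 of 113 cells, and had no UMI on the NK side. Inpp4b, a phosphoinositide phosphatase, was at 2292 against 19.0 CPM, a log2 ratio of 6.91 (5.55 to 8.79) without the second lineage.

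Receptors and regulators of the ILC2 side followed the same split. Furin, a proprotein convertase, was at 1966 CPM against 42.9 on the NK side, a log2 ratio of 5.52 (4.59 to 6.65) without the second lineage. Lmo4, a LIM-domain cofactor, was at 1592 against 119, a log2 ratio of 3.74 (3.18 to 4.37). Of receptors for neuropeptides, adrenergic signals and lipids, 8 of 8 measured genes were at least 2-fold higher on the ILC2 side, and 7 of 8 without the second lineage. The ILC2 side held 1798201 UMIs and the NK side 209979, both with the second lineage included. A sparse gene thus reached the limit of 20 UMIs over both mostly through the ILC2 side. The count therefore describes genes detected there and not the whole list of 12. Ltb4r1, the leukotriene B4 receptor, had UMIs in 102 of 113 cells of the ILC2 side and in none of the NK side. Ramp1, a subunit of the CGRP receptor, had UMIs in 102 of 113 and in 2 of 21. Il17rb, the IL-25 receptor, was sparse, at 12.0 CPM (6.99 to 19.2) and in 14 of 113 cells.

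The genes that led the NK side were Gzma, Klra4, Gzmb, Prf1, Klra9, Ccl5, Il12rb2, Klrb1c, Ncr1 and Klra8. Gzma was at 6486 CPM (6146 to 6840) on the NK side and held 1 UMI on the ILC2 side without the second lineage, a log2 ratio of -13.17 (-18.47 to -10.69). Ccl5 was at 14349 against 21.2 CPM. Ccl4, a macrophage inflammatory protein, was at 3519 against 1.41, but 1 of the 21 cells held 49.5% of its UMIs. Xcl1, which attracts cross-presenting dendritic cells, was at 1338 on the NK side with 41.6% of its UMIs in 1 cell, and had no UMI on the ILC2 side. Ifng, encoding interferon-γ, had UMIs in 8 of 21 NK-side cells, at 57.1 CPM (29.5 to 99.8), and in none of 113 on the ILC2 side. Of NK receptors, 15 of 18 measured genes were at least 2-fold higher on the NK side, though reads of the Klra family may be split among near-identical copies.

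Genes of the cell state also differed by side. Of 14 immediate-early and dissociation genes, 11 were at least 2-fold higher on the ILC2 side and none lower, with a median log2 ratio of 2.01, and of 1.71 without the second lineage. Fosb was at 2369 CPM (2289 to 2450) against 176 (124 to 243). Of 11 genes that TNF is known to induce, 6 were at least 2-fold higher on the ILC2 side, with a median of 1.60, and of 1.35 without the second lineage. Nfkb1, which encodes the p105 subunit of NF-κB, was at 3031 against 314 CPM and in 113 of 113 against 15 of 21 cells. Mouse Tnf itself had UMIs in 32 of 113 cells of the ILC2 side, at 46.6 CPM, and in 1 of 21 on the NK side.

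**Figure D3:**
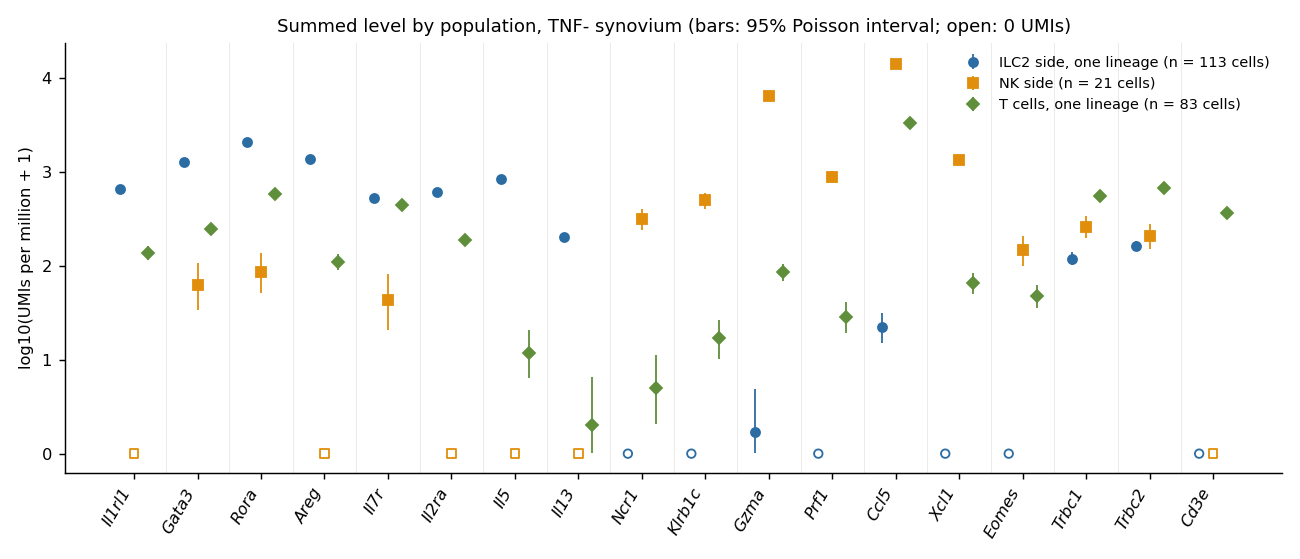
Summed levels in 3 populations of the TNF- synovium. The y axis is log10 of the CPM plus 1, bars are 95% Poisson intervals, and open symbols mark genes with no UMI in that population. The ILC2 side (113 cells) and the NK side (21 cells) separate at each gene from Il1rl1 to Eomes, and the T cells (83, without a second lineage) differ from both at Cd3e.

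T cells of the same library were taken for comparison. They were 92 barcodes with at least 3 UMIs of Cd3d, Cd3g and Trac that met the other exclusions, with a median of 11029 UMIs. Against them, 8.61% of 8904 genes were at least 2-fold higher in the 149 gated cells and 9.76% at least 2-fold lower, or 10.8% and 6.83% with median-of-ratios scaling. Of the ILC2 list 21 of 29 measured genes were at least 2-fold higher and 2 lower, with a median log2 ratio of 1.83, against -0.19 over all genes. That list holds Il1rl1 and Gata3, which the gate counted and the rule for T cells did not. Of the T cell list, which holds the excluded genes, 15 of 16 were at least 2-fold lower.

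The genes furthest above T cells were Il5, Il13, Pde7b, Igsf5, Vegfc, Dmxl2, Nrgn, Slc7a8, Bcar3 and Gcnt1. Il5 was at 605 CPM in the gated cells and 9.60 in T cells, a log2 ratio of 5.98 (5.17 to 6.93). Il13 had 286 UMIs against 1. Vegfc, a lymphatic growth factor, had 72 UMIs in the gated cells and none in T cells. Of growth and repair factors and peptides 9 of 11 were at least 2-fold higher and none lower, with a median of 2.78. Areg among them had a log2 ratio of 3.42 (3.14 to 3.70).

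The genes furthest below T cells were Cd3g, Cd3d, Cd3e, Trac, Cd8b1, Cd40lg, Themis, Cd5, Il23r and Cd6. Cd3g, Cd3d and Trac were at 0 by the rule. Themis, a regulator of thymocyte selection, was at 2.49 against 271 CPM, and Cd40lg, the helper ligand for CD40, had no UMI in the gated cells and 116 in T cells. Il7r did not separate the populations, with a log2 ratio of 0.09 (-0.07 to 0.26). After thinning each cell to 3000 UMIs, Il5 was found in 44.2% (34.9 to 53.9) of the 113 ILC2-side cells, in 2.17% (0.264 to 7.63) of T cells and in none of the 21 cells of the NK side. Unthinned, the shares were 53.1%, 6.52% and 0 of 21. The interval for 0 of 21 cells reaches 16.1%.

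The comparison between genotypes rested on few TNF+ cells. The 17 TNF+ cells of the ILC2 side held 121990 UMIs, against 1417291 in the 113 TNF- cells, with medians of 6430 and 11669 UMIs per cell. They were not uniform. Of the 17, 12 had Il1rl1, and 11 of these had Rora. The other 5 had 3 to 7 Gata3 UMIs and 1 to 27 Rora UMIs each but no Il1rl1, Il5 or Calca. Those 5 were at 2673 CPM (2218 to 3194) of Ccl5, at 3468 of Gzmc, of which 1 cell held 153 of 157 UMIs, and at 641 of Irf8. In the 12 cells with Il1rl1, neither Ccl5 nor Gzmc had a UMI. The 4 TNF- cells of the ILC2 side without Il1rl1 had 1 Ccl5 UMI and no Gzmc UMI in all.

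Over all gated cells, 13.6% of 7719 genes were at least 2-fold higher in TNF+ and 12.8% at least 2-fold lower, or 9.64% and 16.1% with median-of-ratios scaling. On the whole ILC2 side the shares were 15.6% and 12.9% of 7191 genes. Without barcodes of a second lineage they were 13.4% and 12.9% of 5945, and the median log2 ratio over these genes was 0.14. The intervals of 479 of the higher and 237 of the lower genes cleared 0. Values below are from this last comparison.

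The effector genes of the ILC2 side did not all differ in the same direction. Il5 was at 2664 CPM (2382 to 2970) in TNF+ and 854 in TNF- cells, a log2 ratio of 1.64 (1.46 to 1.82). It had UMIs in 10 of 17 TNF+ cells, with 0 to 97 per cell and a median of 9, and 1 cell held 29.8% of its UMIs. Calca was at 787 (637 to 961) against 115, a log2 ratio of 2.77 (2.40 to 3.15), in 10 of 17 cells, of which 1 held 40.6% of its UMIs. Of the 10 TNF+ cells with Calca 9 had Il5, against 1 of the 7 without it, but 5 of those 7 were the cells without Il1rl1. Among the 12 cells with Il1rl1 the counts were 9 of 10 and 1 of 2. After thinning to 3000 UMIs, which left out 1 TNF+ cell, 56.3% of TNF+ cells (29.9 to 80.2) had Calca, against 20.4% of TNF- cells (13.4 to 29.0), where unthinned shares were 58.8% and 30.1%. For Il5 the thinned shares were 62.5% (35.4 to 84.8) and 44.2% (34.9 to 53.9), with intervals that overlap.

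Areg was at 984 CPM (816 to 1176) in TNF+ cells and 1392 in TNF- cells, a log2 ratio of -0.50 (-0.78 to -0.23), with 49.2% of the TNF+ UMIs in 1 cell. Il13 had 1 UMI in 17 TNF+ cells and 286 in 113 TNF- cells, a log2 ratio of -4.62 (-9.93 to -2.13). Csf2 was at 98.4 against 467 CPM, a log2 ratio of -2.25 (-3.21 to -1.43), in 2 of 17 against 46 of 113 cells. Of 15 measured cytokines and chemokines, 2 were at least 2-fold higher and 7 at least 2-fold lower in TNF+, with a median of -0.92. In contrast Rora differed little, with a log2 ratio of -0.02 (-0.21 to 0.17), and Gata3 had 0.31 (0.09 to 0.52).

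Restricting the comparison to cells with Il1rl1, 12 TNF+ and 109 TNF-, removed the 5 TNF+ cells without it, of which 4 had Ccl5 and 3 had Gzmc. This setting was added after the data were seen. Of 5685 genes, 17.6% were then at least 2-fold higher in TNF+ and 11.3% lower. Il5 then had a log2 ratio of 2.26 (2.07 to 2.43), Calca of 3.38 (3.01 to 3.76) and Areg of 0.09 (-0.20 to 0.36). Il13 had -4.01 (-9.31 to -1.52) and Csf2 -1.57 (-2.53 to -0.75). Of the 15 cytokines and chemokines, 2 were higher and 5 lower, with a median of -0.27. Of the NK list, 13 of 14 measured genes were at least 2-fold higher in the 17 TNF+ cells before this restriction. Ccl5 led them, at 992 against 21.2 CPM, with 81.8% of its TNF+ UMIs in 1 cell. Genes were measured at 20 UMIs or more over both groups. An NK gene nearly absent from TNF- cells could thus enter only if high in TNF+ cells, so this count does not describe the whole list. In cells with Il1rl1, 7 of 38 listed NK genes were measured. Of these 1 was at least 2-fold higher and 1 lower, with a median of -0.33, against 0.18 over all genes. Before this restriction, Ramp3, a subunit of receptors for CGRP-family peptides, was at 787 against 250.5 CPM, a log2 ratio of 1.65 (1.31 to 1.98). Ramp1 then had 3 UMIs against 296. In cells with Il1rl1, Ramp3 had a log2 ratio of 2.17 (1.82 to 2.51), and Ramp1 had 0 UMIs against 286.

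The genes that led the TNF+ side were Odc1, Ptpn22, Xpo1, Arhgap30, Ldha, Ifngr1, Runx3, Tiprl, Kdm1a and Gtf2b. Odc1, the rate-limiting enzyme of polyamine synthesis, was at 3681 CPM (3348 to 4037) against 327 (298 to 358) and in 15 of 17 against 64 of 113 cells, a log2 ratio of 3.49 (3.30 to 3.68). Odc1 was higher outside the gate too, with a log2 ratio of 2.83 (2.67 to 2.98) in T cells and of 1.41 (1.37 to 1.45) in all synovial barcodes outside the gate. Ldha, lactate dehydrogenase A, had 1.72 (1.48 to 1.96), against 0.72 in T cells and 1.53 in other barcodes. Ifngr1, an interferon-γ receptor subunit, had 1.75 (1.47 to 2.03). Tnfrsf9, the costimulatory receptor 4-1BB, had 2.49 (1.95 to 3.01), against 2.90 in T cells.

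The genes that led the TNF- side were Atf3, Egr3, Il13, Egr1, Hba-a1, Gpx3, Nrgn, Klf2, Gsn and Rgcc. Of 14 immediate-early and dissociation genes 10 were at least 2-fold lower in TNF+ and none higher, with a median log2 ratio of -1.38. In T cells, where 7.65% of 7280 genes were at least 2-fold higher in TNF+ and 9.96% lower, 11 of the 14 were lower, with a median of -1.64. In the ILC2-side cells with Il1rl1, 8 of the 14 were at least 2-fold lower, with a median of -1.16, and Fosb had -0.72 and Nr4a1 -0.80. Fosb had -1.33 (-1.61 to -1.06) on the ILC2 side, -2.76 in T cells and -1.73 in other barcodes, and Egr1 had -3.15 (-4.77 to -1.91), -2.88 and -2.42. Nfkb1 had -0.83 (-1.04 to -0.63), -1.09 and -0.86. Of 11 genes that TNF is known to induce, 10 were measured, of which 1 was at least 2-fold higher and 1 lower, with a median of -0.35. Mouse Tnf had UMIs in 32 of 113 TNF- and 0 of 17 TNF+ cells, where 0 allows up to 30.2 CPM.

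Transcripts of other cells differed between the libraries as well. Gsn, abundant in fibroblasts, was at 187 CPM in TNF- and 16.4 in TNF+ cells of the ILC2 side, and at 12124 and 919 in the other barcodes of those libraries. The fibroblast gene Dcn had UMIs in 71 of 113 TNF- cells, with at most 5 per cell, and in 0 of 17 TNF+ cells. In TNF- cells Dcn was at 85.4 CPM on the ILC2 side, 71.4 on the NK side and 85.6 in T cells, and in other barcodes at 8930 in TNF- and 1627 in TNF+. The part of such transcripts in the genotype differences was not tested.

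**Figure D4:**
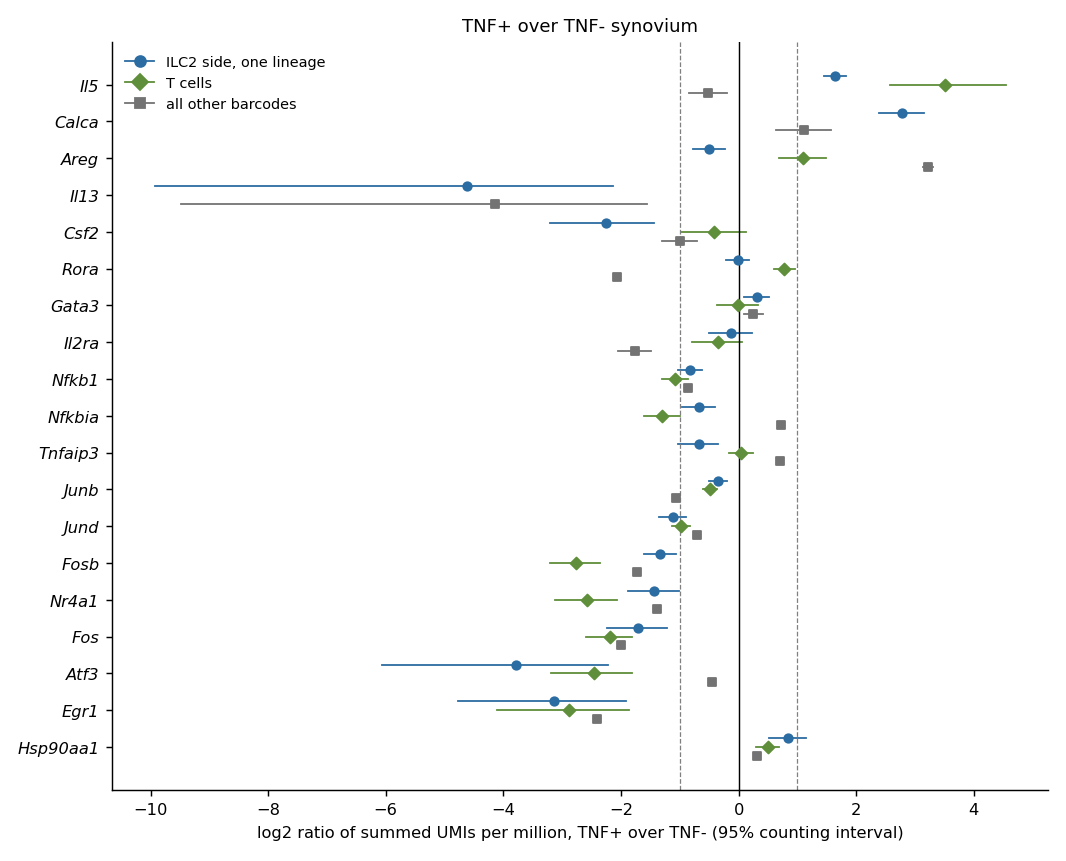
TNF+ over TNF- in the synovium. Points are log2 ratios of CPM with 95% counting intervals for the ILC2 side without a second lineage (17 and 113 cells), T cells (68 and 92) and all barcodes outside the gate, and dashed lines mark 2-fold. Il5 and Calca lie right of 2-fold and Il13 and Csf2 left of it on the ILC2 side, while Fosb, Nr4a1, Fos and Egr1 lie left of 2-fold in all 3 populations. All 53 Il5 UMIs of TNF+ T cells were in 1 cell.

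On the NK side TNF+ cells were too few for gene counts. All 4 had Eomes and Klrb1c, and 2 had Ccl5 and Gzma, with 119 and 368 Ccl5 UMIs and 67 and 208 Gzma UMIs. The other 2 had none of either, and 1 of them had 19 UMIs each of Gzmc and Xcl1. One of the tied cells had 147 Gzmc and 43 Xcl1 UMIs, and the other had 46 Gzma and 32 Ccl5 UMIs. Gzmc, a granzyme with no UMI in the 149 TNF- gated cells, thus had UMIs on the ILC2 side, on the NK side and in a tied cell of the TNF+ library. It was also at 158 CPM in TNF+ T cells, with 75.3% of its UMIs in 1 cell, and at 1.60 in TNF- T cells.

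The same gate in the lung gave a comparison between tissues of TNF- mice, in which tissue, digestion enzymes and library cannot be told apart. On the ILC2 side 20 of the 39 lung barcodes met the limit for a second lineage. The median over all 39 was 32 UMIs of 5 endothelial genes, and the highest count was 433. With them, 11.3% of 9214 genes were at least 2-fold higher in the synovium and 43.4% at least 2-fold lower, or 17.8% and 27.8% with median-of-ratios scaling. Without them, 113 synovial and 19 lung cells gave 8.13% and 36.6% of 6505 genes. On the NK side the shares were 3.01% and 32.8% of 8885 genes, and 3.31% and 31.1% of 7797 without a second lineage. The medians over all genes without it were -0.65 and -0.55, so a gene at 0 stood above most others.

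The synovial cells carried more effector transcripts on the ILC2 side. Areg was at 1392 CPM in synovium and 88.7 in lung, a log2 ratio of 3.97 (3.27 to 4.78), and had UMIs in 95 of 113 and 5 of 19 cells. Il5 had 3.36 (2.63 to 4.20), Csf2 4.07 (2.84 to 5.70) and Furin 2.64 (2.26 to 3.04). Il13 had 286 UMIs in synovium and none in lung. The core genes were closer, at 0.74 (0.54 to 0.94) for Rora, -0.36 (-0.54 to -0.18) for Gata3 and -0.49 (-0.73 to -0.24) for Il1rl1. Arg1, encoding arginase 1, was lower in synovium, at -1.29 (-1.65 to -0.90), and Inpp4b at -1.50 (-1.59 to -1.40). Calca had -1.89 (-2.29 to -1.48), but all 77 lung UMIs were in 1 of the 19 cells.

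Of 14 immediate-early and dissociation genes 11 were at least 2-fold higher in synovium on the ILC2 side, with a median of 1.82, and of 10 TNF response genes 7 were, with a median of 1.17. On the NK side 2 of 12 and 1 of 10 were. Gzma there had -0.25 (-0.33 to -0.16) and Ccl5 0.18 (0.12 to 0.23), whereas Ccl4 had 3.12 (2.96 to 3.28) and Xcl1 3.73 (3.42 to 4.04), with 49.5% and 41.6% of the synovial UMIs in 1 cell. Zeb2, a regulator of NK maturation, had -3.06 (-3.52 to -2.63), at 214 against 1785 CPM.

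The genes that led the synovium on both sides were Cmss1, Cdk8, Il31ra, Gm42418 and Lars2, with Cxcl2, Atf3, Gadd45b, Nr4a3 and Ccl1 on the ILC2 side and Gm15564, AY036118, Gm48099, Gphn and Fosl2 on the NK side. Gm42418, an RNA gene that overlaps ribosomal sequence, was at 96993 CPM on the ILC2 side and 100748 on the NK side of the synovium, and at 5296 and 3325 in the lung. Outside the gate, in T cells and in all other barcodes, it was at 80071 and 101082 in the TNF- synovium and, in T cells and other barcodes of the TNF- lung, at 4109 and 7438. The genes that led the lung on the NK side included Scgb1a1 and Sftpc, products of lung epithelium, with 0 UMIs in the 21 synovial cells and 447 and 361 UMIs in the 150 lung cells.

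**Figure D5:**
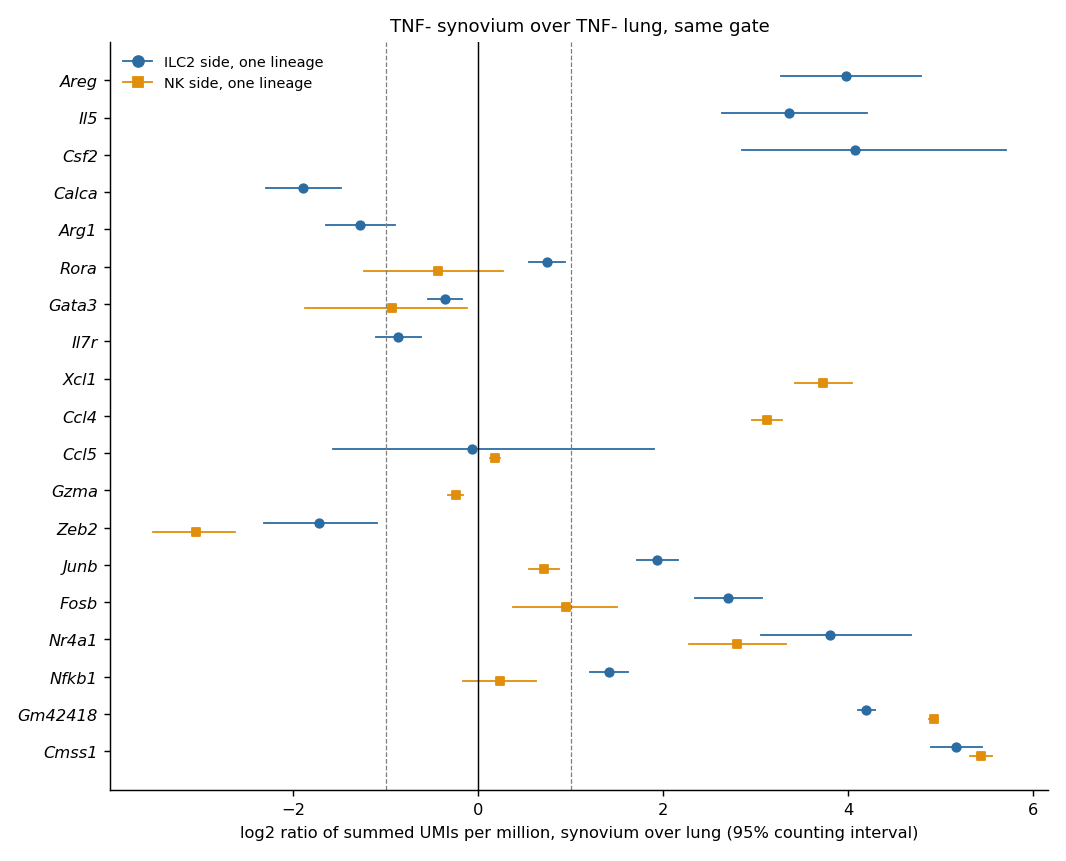
TNF- synovium over TNF- lung for the same gate. Points are log2 ratios of CPM with 95% counting intervals for the ILC2 side (113 and 19 cells) and the NK side (21 and 150 cells), both without a second lineage, and dashed lines mark 2-fold. Areg, Il5 and Csf2 lie right of 2-fold on the ILC2 side and Xcl1 and Ccl4 on the NK side, while Gzma and Ccl5 lie near 0.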

How the data were processed

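Single-cell RNA of lung and synovium was measured in 4 libraries (10x Chromium 3′) of sorted viable cells, after type II collagenase for synovium and collagenase A, elastase and dispase II for lung. The deposited values are unnormalized UMI counts that the authors made with Cell Ranger 7.0.1 at default settings on the 10x mouse reference of build GRCm38 (mm10), a version that counts intronic reads by default. Of 32285 genes, 32235 were found by identifier in GENCODE vM21 of the same build.

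The members, the gene lists and the limits were chosen with earlier results of these data known. No file used here assigns cell types. Counts were summed over the cells of a group and scaled to their total (CPM, counts per 1000000, exact Poisson interval). Shares carry Clopper-Pearson intervals, differences of shares Newcombe intervals and log2 ratios conditional binomial intervals, all at 95%. Genes with at least 20 UMIs over both groups were compared, and a ratio against 0 UMIs was taken against a floor of 3 UMIs per group. Named leading genes were the 10 per direction with the interval bound nearest 0 farthest from 0, at 50 UMIs or more and with at most 25% of the higher group's UMIs in 1 cell; list members were also named. Doublets were not removed; Scrublet was an alternative, as were other limits of the gate, depth, weights, scaling and minimum UMIs. Scripts used Python 3.11.15, numpy 2.4.6, scipy 1.17.1, pandas 2.3.3 and scanpy 1.11.5 and were tested on simulated data.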

Additional observations from a re-analysis of the deposited data

Results flagged for a closer look

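The ratio of TNF+ over TNF- on the ILC2 side, without barcodes of a second lineage, pointed in opposite directions in synovium and lung for Il5, Calca and Ltb, with intervals clear of 0 in both tissues. Each tissue and genotype is 1 library, and the difference between tissues was not tested. Il5 had a log2 ratio of 1.64 (1.46 to 1.82) in synovium, on 325 and 1210 UMIs, and of -3.18 (-4.99 to -1.64) in lung, on 5 and 15 UMIs, and 9 of the 15 were in 1 cell. Calca had 2.77 (2.40 to 3.15) in synovium, on 96 and 163 UMIs, and -3.40 (-4.15 to -2.70) in lung, on 22 and 77 UMIs, of which the 77 were in 1 cell. Ltb, which encodes lymphotoxin-β, had -1.57 (-2.45 to -0.81) in synovium, on 14 and 482 UMIs, and 0.50 (0.20 to 0.81) in lung, on 482 and 113 UMIs. The limit for a second lineage was chosen after the data were seen. With those barcodes kept, the lung ratio of Il5 was -1.09 (-2.90 to 0.45), which is not clear of 0, that of Calca -1.31 (-2.06 to -0.61) and that of Ltb 2.53 (2.24 to 2.83).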

How the results depend on the processing

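Of 164 recomputed shares of cells or genes, 138 stayed within their interval or within 1.5 times the main value. Requiring Cd3e, Trbc1, Trbc2 and Trdc at 0 as well moved the share of barcodes in the gate to 0.678% (TNF-) and 0.114% (TNF+), a difference of -0.564 points, and the share of Ptprc-positive barcodes to 3.90% and 0.287%, a difference of -3.61. The TNF+ gate was then 100% on the ILC2 side, 25.4% of genes were at least 2-fold lower on the ILC2 than on the NK side, 24.5% (all gated cells) and 23.4% (ILC2 side) were higher in TNF+, 15.1% were lower than in T cells and 5.38% higher than in lung on the NK side. Trbc1 or Trbc2 was present in 14 of 17 TNF+ ILC2-side cells without a second lineage. It was also present in all 4 NK-side and 2 tied cells. The TNF+ values of this setting thus rest on few barcodes. These included the endothelial barcode with 28468 UMIs and another with 693 UMIs. Col1a1 and Col1a2 at 0 gave shares of 1.67% and 0.429% of barcodes and of 9.62% and 1.07% of Ptprc-positive barcodes, a difference of -8.54 points. Thinning to 3000 UMIs before the gate gave 1.59% and 0.405% of barcodes, 10.995% of TNF- Ptprc-positive barcodes and a TNF+ ILC2 side of 91.7%. With the opposite pair of genes at 0, the ILC2 side held 92.7% (TNF-) and 94.1% (TNF+). Median-of-ratios scaling gave 17.8% higher and 27.8% lower than lung on the ILC2 side and 1.77% higher on the NK side.

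Of 440 recomputed ratios of named genes, 305 stayed, 132 moved and 3 reversed. The 3 were of Cd74 without barcodes of a second lineage, a setting added after the data were seen: -0.79 by side, 2.16 by genotype and 2.07 by genotype on the ILC2 side. The genotype ratio of Il5 on the whole ILC2 side lay between 1.10 and 2.01, that of Calca between 1.98 and 3.84 and that of Areg between -2.72 and -0.28. These ranges leave out the restriction to cells with Il1rl1. There Il5 had 2.26 (2.07 to 2.43) and Areg 0.09 (-0.20 to 0.36), both outside the ranges, and Calca had 3.38 (3.01 to 3.76). Scrublet would have removed 381 and 144 synovial barcodes, 11 and 0 of them gated. No paired analysis was possible because each group is 1 library. The 17 TNF+ cells of the ILC2 side limit every genotype value.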
